A study of Xenopus tropicalis with 39 samples.

Results

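The comparison set vegetal masses of Xenopus tropicalis embryos that had received a morpholino against Vegt (Vegt MO) against masses that had received a morpholino against Otx1 (Otx1 MO), with 2 libraries of each, that is 4 of the 39 samples of the series. It asks which RNAs tell the loss of one factor from the loss of the other, and the members were taken by the labels alone. Morpholinos are antisense oligomers that keep a target RNA from being translated or spliced. All 4 libraries came from embryos injected at the 1-cell stage, so both sides carry an injection and a morpholino. The vegetal mass, the prospective endoderm, was cut out at stage 9 (6 h after fertilization), and its RNA was taken at stage 10.5 (7 h after fertilization). The sample titles give the stage as 10. Masses that had received both morpholinos (Double MO, n = 2) entered the estimate of the spread, and uninjected masses (n = 2) entered no fit of the comparison except 1 alternative with all 8 libraries. No library with a control morpholino was used here, and neither the amount of morpholino nor the number of explants per library is given in the labels. The design text calls these samples biological duplicates, and no label says what a replicate number marks. P-values therefore measure the spread between these libraries.

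Vegt is a T-box transcription factor of Xenopus whose RNA is laid down in the egg and localized to the vegetal pole. It is known for starting the endoderm programme and the expression of Nodal ligands there when the zygotic genome becomes active. Otx1 is a homeodomain transcription factor of the orthodenticle family, known in vertebrates mostly from the head and the anterior nervous system. The vegetal mass of the early gastrula gives rise to endoderm and is a source of signals that induce mesoderm, while the animal cap gives rise to ectoderm. A morpholino need not change the RNA of its target, so the level of a targeted RNA does not measure the block. In bulk samples such as these, fewer cells of a type and less RNA per cell cannot be told apart.

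The count total of the 4 libraries compared was between 12146392 and 16379814, and between 14883 and 15752 features per library had at least 1 TPM (transcript abundance per length, with equal library totals). The deposited tables name 26550 gene models and 5684 long non-coding RNA (lncRNA) models by identifiers, and 0 of these were found in the reference table, so genes are not named and no role is given to any of them. Endoderm and ectoderm markers, and vegt and otx1 themselves, could not be read by name. Libraries with the same number resembled each other. The deviations of the number 1 libraries from their group means correlated with r = 0.750 between Vegt MO and Otx1 MO, as a description over 11560 features that share these libraries. The comparison was made within numbers, with the number as a block in the fit.

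Many RNAs told the 2 losses apart. Of 15971 features tested, 1142 (7.15%) were higher in Vegt MO than in Otx1 MO masses and 1788 (11.2%) were lower, at a Benjamini-Hochberg adjusted p under 0.05 in edgeR's quasi-likelihood test with the replicate number as a block. The median log2 fold change was 0.88 for the features called higher and -0.84 for those called lower, beside 0.02 over all features tested. The median level of the features called higher was 46.8 and 51.3 TPM in the Vegt MO libraries and 25.4 and 26.9 TPM in the Otx1 MO libraries. The features called lower had medians of 24.0 and 14.4 TPM in Vegt MO against 41.0 and 32.6 TPM in Otx1 MO. The calls rest on pairing the libraries by number. Without the block only 4 features were called higher (0.025%) and 3 lower (0.0188%), all of them among the calls above, and 1767 features had an unadjusted p under 0.05, against 5044 with the block.

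Which direction had more features depended on the fold cutoff. At least a 2-fold difference was reached by 503 features called higher (3.15%) and by 685 called lower (4.29%). Without Otx1 MO number 2 these counts were 243 and 341, and without Vegt MO number 2, 457 were lower by at least that much. At least a 4-fold difference was reached by 196 called higher (1.23%) and 143 called lower (0.895%). The range of log2 fold changes ran up to 9.23 among the features called higher, where 7 features had no count in the Otx1 MO libraries. It ran down to -8.30 among those called lower, where 10 had no count in the Vegt MO libraries. These end values come from features at 0 on one side and depend on the prior count of the fit. The TPM ranges of the groups did not overlap for 1015 of the features called higher and for 1496 of those called lower. Over all features tested, 18.1% had all Vegt MO values above all Otx1 MO values and 25.3% had them below.

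**Figure D1:**
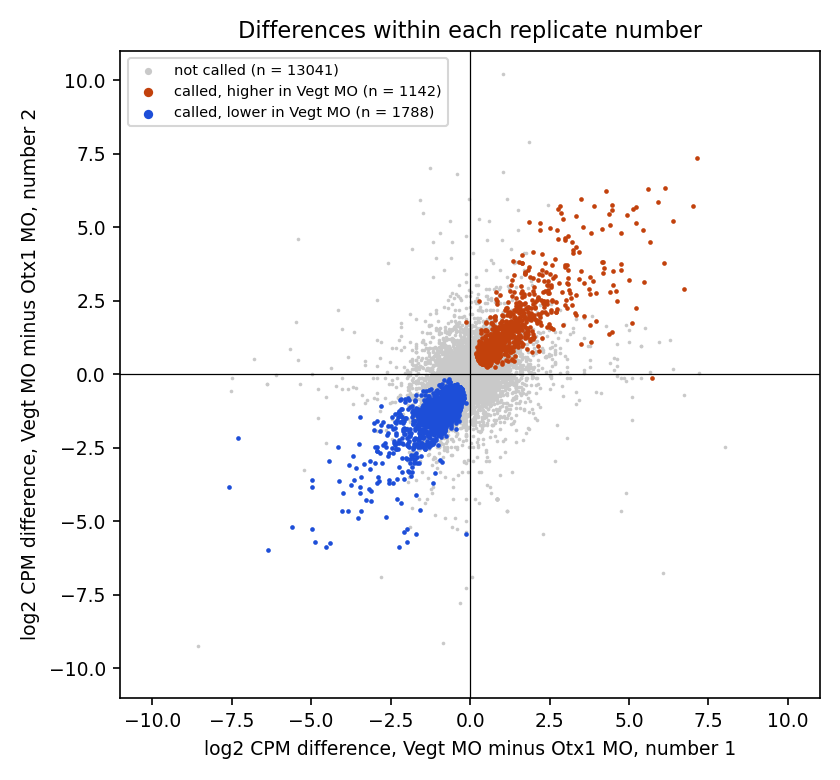
Difference between Vegt MO and Otx1 MO in log2 CPM (counts scaled by effective library size) within number 1 (horizontal axis) and within number 2 (vertical axis), 1 point per feature tested. The 1142 features called higher and the 1788 called lower lie in opposite corners, while a cloud of uncalled features lies about 0.

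Within the numbers, the median log2 difference of the features called higher was 0.77 in number 1 and 0.96 in number 2. That of the features called lower was -0.70 in number 1 and -1.0 in number 2. All 1788 features called lower had the same sign within both numbers, as did 1140 of the 1142 called higher, which the block favours by its construction. Calls depended on the level. In 5 bins of equal size ordered by mean count, the share called lower was 2.88%, 6.64%, 14.7%, 17.3% and 14.4% from the lowest bin to the highest. The share called higher ran more evenly, from 2.91% in the lowest bin to 9.71% in the highest.

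The gene models with the greatest differences were taken by a rule, 2 in each direction. Xetrov90030880m.g had 4.82 and 4.44 TPM in the Vegt MO libraries and 0 in both Otx1 MO libraries. It was also at 0 in both Double MO and both uninjected libraries, so among the masses it was detected in Vegt MO alone. Its estimated counts were 75.8 and 88.8 in Vegt MO against 0 and 0 in Otx1 MO. With a floor of 3 counts per library it was at least 24.2-fold higher in Vegt MO. It passed the filter on low counts through the Vegt MO libraries alone, so no p-value is given for it. It was not called without the block.

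Xetrov90024647m.g had 24.7 and 31.9 TPM in Vegt MO against 0.29 and 0.38 TPM in Otx1 MO. Its Double MO values were 3.36 and 0.28 TPM and its uninjected values 2.25 and 4.21 TPM. Both Vegt MO libraries lay above all 6 other libraries of the masses. The mean was 28.3 ± 5.03 TPM in Vegt MO against 0.335 ± 0.0636 TPM in Otx1 MO (SD, n = 2 each), a log2 fold change of 6.43. Its estimated counts were 189 and 310 in Vegt MO against 2 and 3 in Otx1 MO. It too passed the filter on low counts through the Vegt MO libraries, so no p-value is given for it. It was not called without the block or without either Otx1 MO library.

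Xetrov90009425m.g was abundant in Otx1 MO and low in Vegt MO, with 21.0 and 6.21 TPM in Vegt MO against 456.9 and 367.8 TPM in Otx1 MO. The Double MO libraries held 76.0 and 57.6 TPM, above both Vegt MO values and below both Otx1 MO values. The uninjected libraries were far apart, at 309.5 TPM in number 1 and 39.4 TPM in number 2. The log2 fold change of Vegt MO over Otx1 MO was -4.97 with a standard error of 0.38 (adjusted p = 0.00253, edgeR). The adjusted p was 0.0893 without the block and 0.0885 without Double MO number 2.

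Xetrov90015689m.g had 0.65 TPM in each Vegt MO library, against 11.3 and 12.6 TPM in Otx1 MO. Its Double MO values of 3.28 and 1.00 TPM lay between the groups, as did its uninjected values of 7.94 and 1.91 TPM. The log2 fold change was -4.09. Its estimated counts were 7 and 9 in Vegt MO against 110 and 142 in Otx1 MO. Of the groups compared, it passed the filter on low counts through the Otx1 MO libraries, so no p-value is given for it. It was not called without the block.

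**Figure D2:**
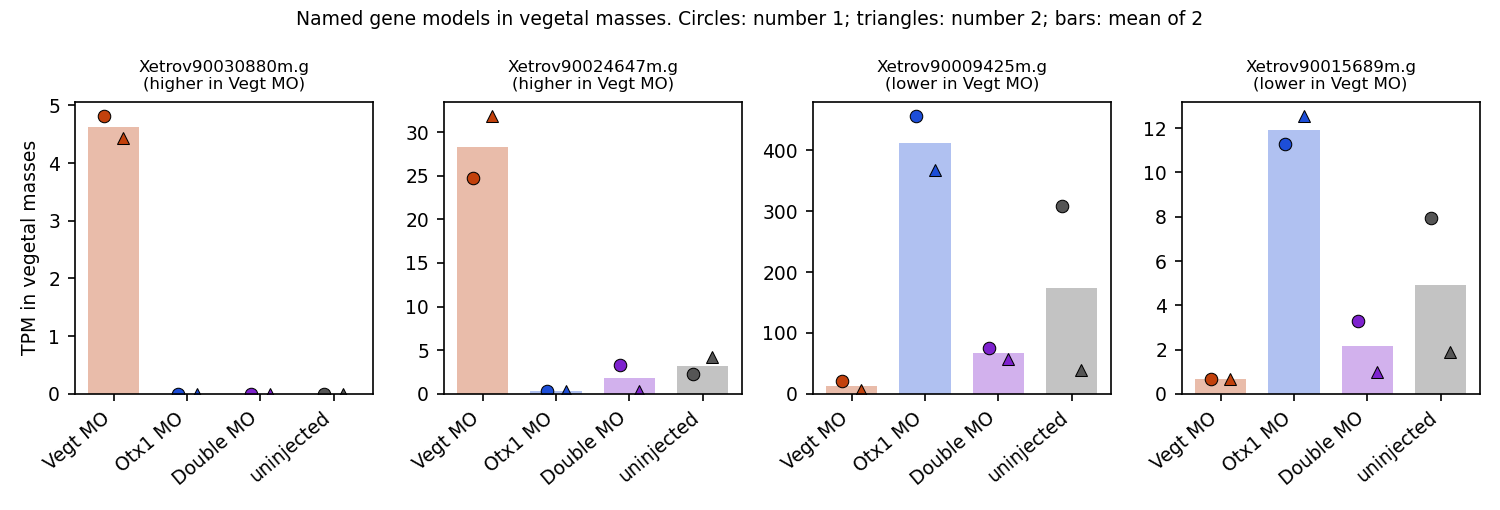
TPM of the 4 named gene models in each library of the vegetal masses; points are libraries (circles number 1, triangles number 2) and bars are means of 2. The Vegt MO points stand above all others in both panels on the left and below the Otx1 MO points in both panels on the right.

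The 4 models were also measured in a separate experiment of the series, in which vegt RNA was injected and animal caps, explants of prospective ectoderm, were sequenced (n = 2 per amount, amounts in ng as the labels give them). Both models that were higher in Vegt MO masses were more abundant in caps than in any mass library, in tables normalized separately. In caps both were lower with 500 ng vegt RNA than in uninjected caps. Xetrov90024647m.g had 123.1 and 152.3 TPM in caps with 500 ng vegt RNA, against 224.4 and 509.1 TPM in uninjected caps (log2 fold change -1.29, standard error 0.23, adjusted p = 0.0104, edgeR). Xetrov90030880m.g had 14.1 and 23.7 TPM with 500 ng, against 23.2 and 61.2 TPM in uninjected caps (log2 fold change -1.03, standard error 0.20, adjusted p = 0.0103, edgeR). For both models the number 2 value of uninjected caps was more than that of number 1, so each fold is read within numbers. No caps with a control RNA were used here. Against uninjected caps alone, an effect of vegt RNA cannot be told apart from an effect of the injection. Caps injected with 50 ng vegt RNA had 232.9 and 442.7 TPM of Xetrov90024647m.g, and 24.2 and 49.0 TPM of Xetrov90030880m.g. The caps with 50 ng and with 500 ng were not tested against each other.

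Xetrov90009425m.g moved the opposite way in the caps. It had 23.7 and 88.9 TPM with 500 ng vegt RNA, against 0 and 0.98 TPM in uninjected caps (log2 fold change 6.84). With a 0 among the uninjected values, the size of this fold depends in part on the prior count of the fit. The model passed the filter on low counts through caps with vegt RNA, so no p-value is given for this difference. Adding 100 ng otx1 RNA to 100 ng vegt RNA gave a log2 fold change of -2.91 with a standard error of 0.73, which did not pass the test (adjusted p = 0.115, edgeR). Xetrov90015689m.g had 2.38 and 1.04 TPM with 500 ng vegt RNA and 0.79 and 0 TPM in uninjected caps, a difference that did not pass (adjusted p = 0.136, edgeR).

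**Figure D3:**
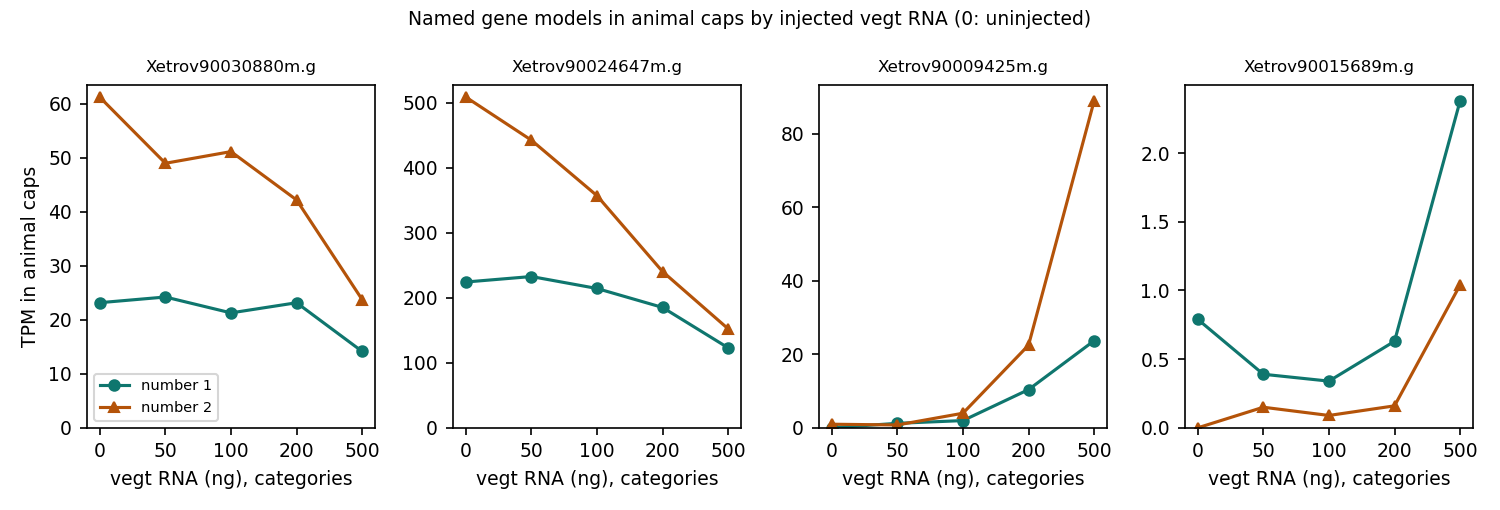
TPM of the same 4 gene models in animal caps against the amount of vegt RNA injected (ng, equally spaced categories, 0 is uninjected), 1 line per replicate number. In both panels on the left the caps with 500 ng lie below the uninjected caps of the same number, and in the third panel they lie far above.

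The 20 gene or lncRNA models per direction with the greatest differences by the same rule were set beside the tissues in which they are abundant. Of the 20 higher in Vegt MO, 12 were cap-enriched, that is, at least 8-fold higher in uninjected caps than in uninjected masses with at least 10 TPM in the caps, and 1 was mass-enriched by the reverse rule. Of the 20 lower in Vegt MO, 0 were cap-enriched and 5 were mass-enriched. Of all features tested, 0.977% were cap-enriched and 3.86% mass-enriched. The 20 higher models had group means between 3.66 and 276.8 TPM in Vegt MO, with a median of 23.0, against a median of 0.718 TPM in Otx1 MO. The 20 lower models had a median of 1.83 TPM in Vegt MO against 20.0 TPM in Otx1 MO. In both directions some of the 20 have consecutive identifiers, among them Xetrov90009425m.g. Such neighbours can share reads, so the 20 need not be separate genes. Caps and masses come from tables that were normalized separately, so the enrichment lists set levels of different tables side by side.

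Cap-enriched features leaned to higher levels in Vegt MO. Of 212 such features 156 were tested, and 63 (40.4%) were higher and 19 (12.2%) lower in Vegt MO. Over all features tested the shares were 7.15% and 11.2%. Without Otx1 MO number 2, 41 were higher. Without the replicate block 1 was higher and 0 lower, and each of the lists that follow had at most 1 call per direction in that fit. The median log2 fold change of the list was 0.81, and it was 0.75 within number 1 and 0.88 within number 2. At the 4-fold level the list held 41 of the 196 features called higher and 2 of the 143 called lower. The 63 had medians of 18.5 and 13.6 TPM in Vegt MO against 2.34 and 1.92 TPM in Otx1 MO, while their median in uninjected caps was 114.2 TPM. They were therefore at a small part of their cap level even in Vegt MO.

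The summed level of all 212 cap-enriched features moved less than the typical member. It was 4655 and 3757 TPM in the Vegt MO libraries, against 4234 and 3151 TPM in the Otx1 MO libraries. In the Double MO libraries it was 4771 and 3325 TPM. In the uninjected masses it was 3107 and 1760 TPM, below every injected library. The uninjected masses also set the list, which favours low values there. In uninjected caps the sum was 53420 and 55939 TPM. Members at 0 numbered 34 and 30 in the Vegt MO libraries against 43 and 41 in the Otx1 MO libraries. The 19 cap-enriched features that were lower in Vegt MO were more abundant, with medians of 45.4 and 18.5 TPM in Vegt MO against 83.0 and 50.0 TPM in Otx1 MO. Whether cap tissue left on the explants had a part in these values was not tested.

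Features that vegt RNA lowered in caps also leaned to higher levels in Vegt MO. This list holds features at least 2-fold lower, at an adjusted p under 0.05, with 500 ng vegt RNA than in uninjected caps (0.947% of 16360 features tested in caps), and 112 of its 155 features were tested in the masses. Of these 42 (37.5%) were higher in Vegt MO and 4 (3.57%) lower, and 21 were higher without Otx1 MO number 2. The median log2 fold change was 0.80, with 0.80 within number 1 and 0.95 within number 2. The 42 had medians of 9.18 and 10.5 TPM in Vegt MO against 1.5 and 1.08 TPM in Otx1 MO. The list shares 31 tested features with the cap-enriched list. Without these, 20 of 81 (24.7%) were higher and 4 lower, with a median of 0.51. The cap-enriched list without them held 41 of 125 (32.8%) higher and 19 lower, with a median of 0.54.

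Features that vegt RNA raised in caps did not lean to one side. In caps 400 features (2.44%) were raised by that rule. Of 366 tested in the masses, 67 (18.3%) were higher in Vegt MO and 75 (20.5%) were lower, and the median log2 fold change was -0.03. Both shares were above those of all features tested, while the median was close to that of all features. The 67 had medians of 33.8 and 43.1 TPM in Vegt MO against 13.2 and 16.9 TPM in Otx1 MO. The 75 had medians of 14.3 and 8.66 TPM in Vegt MO against 37.1 and 34.8 TPM in Otx1 MO. Thus the RNAs raised with vegt RNA in caps included some lower in Vegt MO than in Otx1 MO and some higher. A comparison of these injected groups does not by itself show a fall after either morpholino. Without Otx1 MO number 2 the counts were 38 higher and 40 lower, and without Otx1 MO number 1, 49 were lower.

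The cap values of both subsets come from other libraries than those that divided them. The median log2 fold change with 500 ng vegt RNA was 4.30 for the 75 that were lower in Vegt MO, and 2.23 for the 67 that were higher. The median level in uninjected caps was 0.855 TPM for the 75 and 6.69 TPM for the 67. Mass-enriched features made up 41 of the 75 (54.7%) and 22 of the 67 (32.8%). Features with a mean below 0.1 TPM at the 8-cell stage made up 34 of the 75 (45.3%) and 28 of the 67 (41.8%). Added otx1 RNA hardly parted them, with median log2 fold changes of -0.12 for the 75 and -0.02 for the 67. These are descriptions, and the difference between the subsets was not tested.

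**Figure D4:**
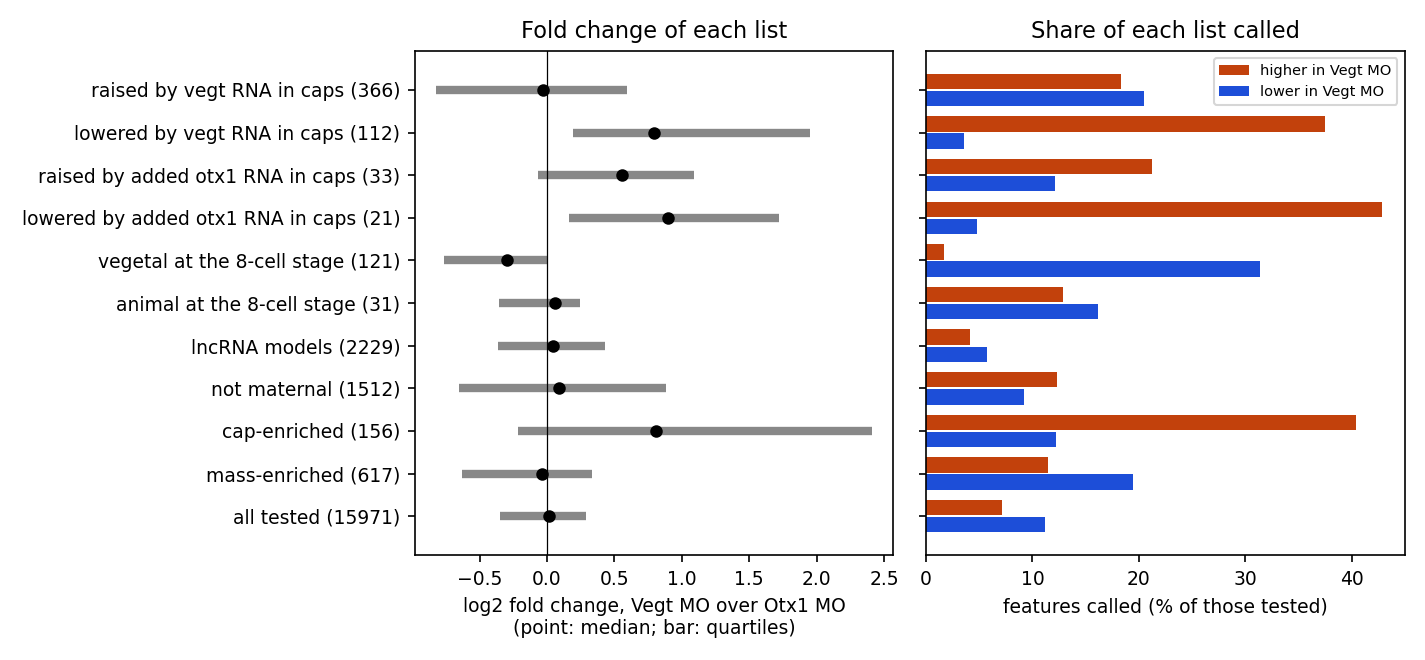
Left, median (point) and quartiles (bar) of the log2 fold change of Vegt MO over Otx1 MO for 10 feature lists and for all features tested (number tested in parentheses); right, percent of each list called higher or lower. The lists lowered by vegt RNA, cap-enriched and lowered by added otx1 RNA have medians to the right of 0, at 0.80, 0.81 and 0.90. The list raised by added otx1 RNA has a median of 0.55. The bars of the cap-enriched list (from -0.22) and of the list raised by added otx1 RNA (from -0.07) cross 0. The list vegetal at the 8-cell stage has its median to the left, at -0.30.

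The lists defined by added otx1 RNA are short. In caps 41 features were called higher (0.251%) and 25 lower (0.153%) with it. In the masses 7.15% of all features tested were higher in Vegt MO and 11.2% were lower. In caps, 100 ng otx1 RNA on top of 100 ng vegt RNA raised 33 of the features tested in the masses. Of these, 7 (21.2%) were higher and 4 (12.1%) lower in Vegt MO, with a median log2 fold change of 0.55. Within number 1 the median was 0.07 and within number 2 it was 0.31. Of 21 tested features that added otx1 RNA lowered, 9 (42.9%) were higher and 1 (4.76%) was lower, with a median of 0.90. Here the medians within numbers were 0.60 and 0.91. Without Otx1 MO number 2 the raised list had 3 higher and 1 lower with a median of 0.28, and the lowered list had 5 higher. Without Otx1 MO number 1 the raised list had 1 lower and a median of 0.94, and the lowered list had 5 higher. The raised list had 13 higher without Double MO number 1 or number 2, and 1 lower without Vegt MO number 2, where the lowered list had 6 higher.

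RNAs that lie vegetally in the early embryo leaned to lower levels in Vegt MO than in Otx1 MO. Of 121 features at least 2-fold higher in vegetal than animal blastomeres at the 8-cell stage (0.896% of those tested there), all tested in the masses, 38 (31.4%) were lower in Vegt MO and 2 (1.65%) were higher. The median log2 fold change was -0.30, with -0.20 within number 1 and -0.42 within number 2. The 38 had medians of 106.8 and 65.1 TPM in Vegt MO against 174.7 and 191.9 TPM in Otx1 MO. Their medians in uninjected masses were 168.8 and 71.2 TPM. In number 2 the uninjected median was thus near that of Vegt MO, and in number 1 near that of Otx1 MO. The differences between Vegt MO and Otx1 MO were moderate, with 15 of the 38 at least 2-fold and 1 at least 4-fold. The list is made of abundant RNAs, with a median log2 CPM of 7.92 against 4.09 over all features tested. In the bin of features with the highest counts, 14.4% were called lower, beside 11.2% of all features tested. The number called lower was 14 without Otx1 MO number 2 and 12 in the fit of all 8 libraries. The 31 tested features of the animal blastomeres had 4 higher (12.9%) and 5 lower (16.1%), with a median of 0.06.

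Mass-enriched features were called more often than all features in both directions. Of 617 tested, 71 (11.5%) were higher in Vegt MO and 120 (19.4%) lower, beside 7.15% and 11.2% of all features tested. Lower calls were thus the more frequent in the list, as they were over all features. The median log2 fold change of the list was -0.03. The 71 had medians of 50.2 and 86.2 TPM in Vegt MO against 18.4 and 33.9 TPM in Otx1 MO. The 120 had medians of 37.5 and 19.1 TPM in Vegt MO against 93.6 and 58.8 TPM in Otx1 MO. The summed level of all 623 such features was 74829 and 82371 TPM in Vegt MO against 86309 and 95631 TPM in Otx1 MO. Mass RNAs thus included features that were lower in Vegt MO than in Otx1 MO and features that were higher. Without Otx1 MO number 2, 26 were higher and 72 lower, and without Vegt MO number 2, 47 were higher. Without Double MO number 1 or number 2, 111 were higher.

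RNAs that were hardly detected at the 8-cell stage, before the zygotic genome is active, were frequent among the largest differences. Features with a mean below 0.1 TPM over all 8-cell libraries, called not maternal here, were 9.47% of all features tested. They were 45.4% of the features at least 4-fold higher in Vegt MO and 48.3% of those at least 4-fold lower. Of the 1512 tested, 186 (12.3%) were higher and 139 (9.19%) lower, with a median log2 fold change of 0.09. Over all features tested the shares were 7.15% and 11.2%. With no fold cutoff, only the higher share of the list was thus above that of all features. The 186 had medians of 6.36 and 10.5 TPM in Vegt MO against 1.56 and 2.05 TPM in Otx1 MO. The 139 had medians of 1.66 and 1.42 TPM in Vegt MO against 6.29 and 6.52 TPM in Otx1 MO. Calls in the list were mostly large, with 168 of the 186 and 120 of the 139 at least 2-fold. Over all features tested, 503 of 1142 higher calls and 685 of 1788 lower calls were at least 2-fold. What part the level of the list has in its shares at 4-fold was not tested. The list is of low level, with a median log2 CPM of 0.61 against 4.09 over all features tested. Its counts moved with the libraries used, with 66 higher and 35 lower without Otx1 MO number 2, 116 and 66 without Otx1 MO number 1, and 123 and 71 without Vegt MO number 2. Without Double MO number 1 or number 2, 289 and 280 were higher.

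Of 2229 lncRNA models tested, 93 (4.17%) were higher in Vegt MO and 127 (5.70%) were lower. Both shares were below those of all features tested, and the median log2 CPM of the models was 1.32. At the 4-fold level lncRNA models were 25 of the 196 features called higher (12.8%) and 31 of the 143 called lower (21.7%), and they were 14.0% of all features tested. The lncRNA counts were 24 higher and 46 lower without Otx1 MO number 2, 44 and 71 without Otx1 MO number 1, and 57 and 78 without Vegt MO number 2. Without Double MO number 1 or number 2, 172 and 166 were higher.

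The injected RNAs can be followed without names only by what rose in the caps. The feature that rose most in TPM with added otx1 RNA had 488.7 and 198.1 TPM in Vegt MO against 660.4 and 533.0 TPM in Otx1 MO masses. Its log2 fold change was -0.82 with a standard error of 0.24 and did not pass (adjusted p = 0.0689, edgeR). The feature that rose most with vegt RNA varied widely between caps of one amount, from 3780.6 to 29952.1 TPM at 500 ng, and in uninjected caps from 3334.1 to 10948.8 TPM. The next one, chosen after its values were seen, had 8218.0 and 9061.4 TPM in caps with 500 ng and 92.9 and 163.2 TPM in uninjected caps. In the masses it had 4173.8 and 3865.6 TPM in Vegt MO against 3192.2 and 3520.7 TPM in Otx1 MO (adjusted p = 0.154, edgeR). That these features are otx1 and vegt was not tested.

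The masses that carried both morpholinos lay nearer to the Otx1 MO masses for most features that told the losses apart. On a scale of log2(TPM + 1) where the Otx1 MO mean is 0 and the Vegt MO mean is 1, the median place of the Double MO mean was 0.23 for features called higher in Vegt MO and 0.20 for those called lower. Double MO was nearer to Otx1 MO for 878 of the 1142 (76.9%) and for 1459 of the 1788 (81.6%). Within number 1 these shares were 72.7% and 77.6%, and within number 2 they were 74.9% and 79.3%. The lean was less for the features at least 4-fold lower in Vegt MO, where Double MO was nearer to Otx1 MO for 80 of 143 (55.9%) and its median place was 0.46. For those at least 4-fold higher it was nearer to Otx1 MO for 141 of 196 (71.9%). On the same scale, uninjected masses were nearer to Otx1 MO for 48.1% of features called higher and 28.3% of those called lower. At the 4-fold level the uninjected shares were 66.3% and 55.2%, beside 71.9% and 55.9% for Double MO. The lean there was thus not particular to Double MO. The uninjected shares at 4-fold differed between numbers, at 79.1% and 71.8% in number 1 and 55.4% and 41.3% in number 2. The group means that set this scale also chose the features, and Double MO entered the estimate of the spread, so the places are given as values with no test.

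**Figure D5:**
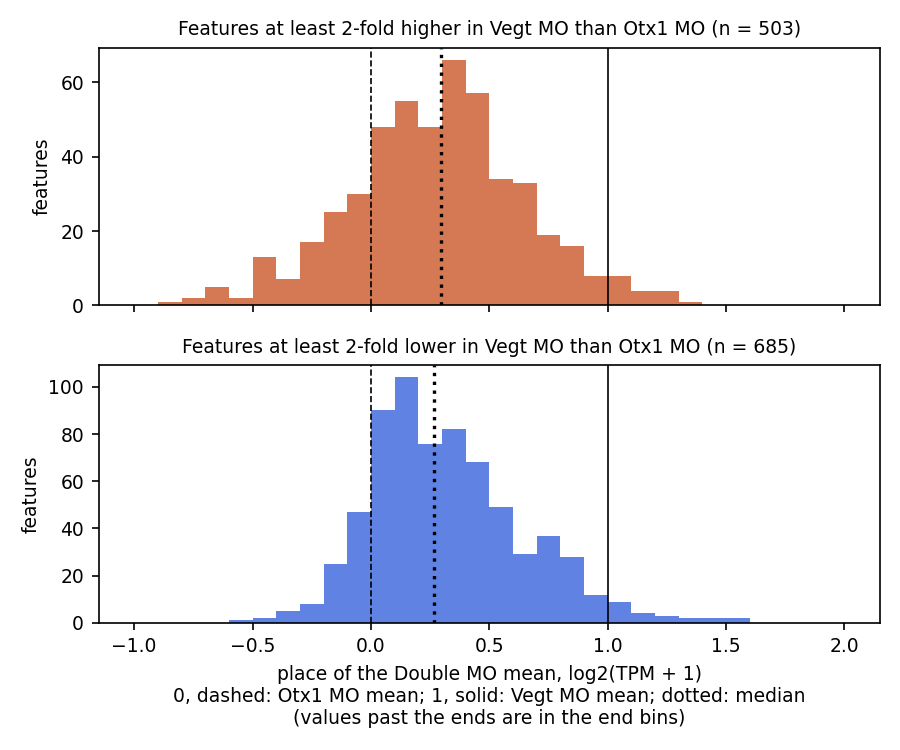
Place of the Double MO mean between the Otx1 MO mean (0) and the Vegt MO mean (1) on the log2(TPM + 1) scale, as counts of features at least 2-fold higher (top, n = 503) or lower (bottom, n = 685) in Vegt MO. Most features lie between 0 and 1, with medians (dotted) of 0.30 and 0.27.

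Within numbers, whole libraries gave the same order. Over 11560 features with a mean of at least 5 TPM, the Double MO library correlated with the Otx1 MO library of its number at r = 0.958 and 0.968, and with the Vegt MO library at r = 0.939 and 0.946. The Vegt MO and Otx1 MO libraries of a number correlated at r = 0.941 and 0.922. Number 1 with number 2 of the same group correlated at r = 0.923 (Vegt MO), 0.932 (Otx1 MO) and 0.894 (Double MO). These are descriptions across features measured in shared libraries. The named models were divided on the log2(TPM + 1) scale. The Double MO mean was nearer to Otx1 MO for both models that were higher in Vegt MO. It was nearer to Vegt MO for both that were lower. For Xetrov90009425m.g, however, it lay close to midway, at 0.52 on the scale above.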

How the data were processed

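PolyA RNA of vegetal masses was sequenced as Smart-seq2 libraries, per the labels' protocols. The authors deposited expected counts (estimated, not always whole) and TPM per feature; RSEM 1.2.12 and Bowtie2 2.2.7 are named in the submitters' processing notes, and the genome build is not given in the sources used here. Estimated counts divide reads among near-identical genes, so single features of gene families are uncertain. Counts were rounded and tested with edgeR 4.0.16 in R 4.3.3 (TMM, filterByExpr, robust glmQLFit, replicate number as block) over the 6 injected libraries. Features with a Benjamini-Hochberg adjusted p under 0.05 were called. The same fit on the cap and 8-cell tables (adjusted p under 0.05, at least 2-fold) defined lists. DESeq2 1.42.0 and limma 3.58.1 were alternatives, and the fit was tested on simulated data. Those data were simulated with replicate effects by number, so they cannot show whether pairing by number is right. Named models had an adjusted p under 0.05, a mean log2 CPM of at least 1, no overlap of groups, 1 direction in both numbers and the greatest fold changes, 2 per direction. The comparison and lists were chosen with earlier results of these data known. Lists by gene symbol could not be read, and the peak lists were not used here.

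Whether replicate numbers mark a shared clutch is not given in the labels. Libraries of 1 number deviated from their groups together, with correlations of r = 0.750 (Vegt MO with Otx1 MO), 0.736 (Vegt MO with Double MO) and 0.698 (Otx1 MO with Double MO), across features, and the block was kept as the comparison was set.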

Additional observations from a re-analysis of the deposited data

How the results depend on the processing

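The number of calls depended on the fit. Without the replicate block, which assumes that same-numbered libraries are paired, 4 features were called higher in Vegt MO and 3 lower, in place of 1142 and 1788. With all 8 libraries and the block the counts were 589 and 896. limma gave 577 and 1096 on log2(TPM + 1), 503 and 943 on log2(TPM + 0.1), and 312 and 452 without a filter. Leaving out 1 library at a time gave between 299 and 1806 higher and between 484 and 2440 lower. The lowest counts came without Otx1 MO number 2. Counts also moved by over 1.5 times without Vegt MO number 2 (604 and 866), without Otx1 MO number 1 (707 and 1119) and, for the higher direction, without Double MO number 1 (1806) or number 2 (1761); the cause was not tested. DESeq2 size factors, DESeq2 itself, no filter on low counts and a fit of the 4 libraries alone stayed within 1.5 times.

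The direction of all 2930 calls was the same without the block, with DESeq2, with its size factors and without a filter on low counts. All 2915 that were tested in the fit of 4 libraries also kept theirs. These settings refit the libraries that chose the calls, so a kept direction was close to given and is no check of the calls. No called result reversed, while the medians close to 0 (features raised by vegt RNA, animal at the 8-cell stage, lncRNA, not maternal and mass-enriched) changed sign in some settings. The median of the cap-enriched list was between 0.42 and 0.87, that of the features vegt RNA lowered between 0.43 and 1.09, and that of the 8-cell vegetal list between -0.45 and -0.15. Higher calls ranged from 41 to 73 in the cap-enriched list and from 21 to 55 in the list lowered by vegt RNA when 1 library was left out. With the cap list itself called without a block, 5 features lowered by vegt RNA were higher. The bin of features with the lowest counts had the smallest shares called, and the part of depth in this was not tested.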

Other observations

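Features that differed at least 4-fold had a neighbour by identifier called the same way more often than all pairs did, though most had none. Among 7179 pairs of consecutive identifiers that were both tested, the first was at least 4-fold higher in Vegt MO in 76, and in 9 of these (11.8%) the second was too, against 1.14% of all pairs. In the lower direction it was 6 of 61 (9.84%) against 0.738%. Over all calls the shares were closer to those of all pairs, at 12.4% against 7.45% higher and 16.4% against 11.8% lower. These shares were not tested. How identifiers relate to position in the genome is not known here, and neighbouring copies can share reads.

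Calls also varied with the number of counts per TPM, which grows with the length of a feature. Over 5 bins of equal size, from the fewest to the most, the share called lower in Vegt MO was 5.67%, 9.42%, 11.6%, 12.7% and 16.6%. The share called higher was 6.42%, 8.36%, 8.30%, 7.61% and 5.07%. The part of length in these calls was not tested.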
